A study of Rattus norvegicus with 8 samples.

Results

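The genes described here encode the contractile apparatus of muscle and its close relatives in other cells, as measured in rat bone cells with and without exposure to an Er:YAG laser. They were taken by name from the array's own annotation: every myosin heavy chain named Myh with a number, every myosin light chain named Myl with a number, the troponins, the tropomyosins Tpm1 to Tpm4, the actins Acta1, Acta2, Actc1 and Actg2, the actinins Actn2 and Actn3, and Ckm, Des, Ttn, Neb, Mb, Myod1, Myog, Myf5, Myf6 and Pax7. This gave 50 genes with 71 probes, of 34912 names and 45598 probes for rat on the array. Neb, Myl6 and Myl6b were not among the names on the array.

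Primary osteoblast-like cells had been freed by enzymes from the skull roof (calvaria) of Wistar rats 3 to 5 days old, after the periosteum was taken off, so that the cultures are mixed isolates enriched for bone-forming cells and not a clonal line. Total RNA of 4 non-irradiated cultures and of 4 cultures collected 6 h after irradiation (3.3 J/cm2, given over 60 s) was hybridized with 1 dye to 1 array each, and each group carries replicate numbers 1 to 4. In the deposited file names, 2 arrays with the same replicate number also have 1 animal number, and they are called a pair here. The question was whether the laser changed these genes within pairs. Beside it stands the difference between the replicate numbers themselves.

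In striated muscle, thick filaments of myosin pull on thin filaments of actin, and a troponin complex on tropomyosin opens the thin filament to myosin when calcium rises. Each muscle type uses its own isoforms of these proteins. Embryonic and perinatal myosin heavy chains are typical of skeletal muscle that is still developing, and the adult fast and slow chains follow. Smooth muscle has no troponin, and its contraction is switched by phosphorylation of a myosin light chain. Cells outside muscle also hold actin, myosin and tropomyosin filaments, and smooth muscle actin is common in cultured mesenchymal cells.

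Probe sequences of the member genes were compared with each other. They were not compared with the transcripts of related genes, so binding of a probe to such a transcript was not tested. Over the 2438 probe pairs of different member genes, the longest shared run was 19 bases, between a Tpm3 probe and a Tpm1 probe, and 0 pairs shared 20 or more. The next longest was 17 bases, between the probe of Tnnc2, troponin C of fast skeletal muscle, and 1 of the 2 probes of Tnnc1, troponin C of cardiac and slow muscle. These 2 probes matched at 48 of 59 bases when aligned without gaps, and no probe pair of different member genes matched at more than 48. The 5 probes below are shown because the readings of Tpm1, Tnnc2 and Myh8 recur in the results. They are the array's own sequences, 5′ to 3′, and capitals mark the run shared by the Tpm3 and Tpm1 probes, the run shared by the Tnnc2 and Tnnc1 probes, and the longest run that the Myh8 probe shares with the Myh3 probe, 6 bases.
Tpm3: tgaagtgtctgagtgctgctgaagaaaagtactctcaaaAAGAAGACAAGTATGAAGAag
Tpm1: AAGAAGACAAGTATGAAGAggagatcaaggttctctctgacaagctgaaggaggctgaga
Tnnc2: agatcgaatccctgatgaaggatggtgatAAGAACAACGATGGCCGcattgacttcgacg
Tnnc1: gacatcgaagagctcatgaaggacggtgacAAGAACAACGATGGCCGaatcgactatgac
Myh8: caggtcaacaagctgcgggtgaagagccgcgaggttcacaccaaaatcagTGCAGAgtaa

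The array places these probes on genome build rn4. The Tpm3 probe spans chr2:182312656-182313983 and the Tpm1 probe chr8:71340060-71340374, both longer than the 60 bases of a probe, so that each joins neighbouring exons. The Tnnc2 probe lies at chr3:155807460-155807519, the Tnnc1 probe at chr16:6642153-6642212 and the Myh8 probe at chr10:54002239-54002298. Of the 71 member probes, 14 cross an intron in this way and 2, those of Acta2 and Myl4, have no position. The skeletal myosin heavy chains Myh3 (chr10:53800570-53800629), Myh2 (chr10:53889275-53889334), Myh1 (chr10:53917888-53917947), Myh4 (chr10:53951729-53951788) and Myh8 (chr10:54002239-54002298) sit next to each other on chromosome 10, and the probes of these 5 genes share at most 8 bases in a row. Exon and UTR annotation of rn4 was not used here.

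Median processed signals lay between 56.2 and 84.8 over the 8 arrays, an array detected between 26543 and 30490 probes, and 0 spots were saturated. The arrays shared 1 slide and 1 scan. Irradiated arrays lay in columns 2 and 4 and the others in columns 1 and 3, with each pair side by side, so irradiation cannot be told apart from the column, nor the replicate number from the place of the pair. Markers of the labelled cell type were present: all 10 osteoblast genes examined, among them Runx2, Sp7, Alpl, Bglap and Col1a1, were well above background on all 8 arrays.

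Of the 71 member probes, 44 were well above background on all 8 arrays, 11 on none and 16 on some. Over all 45598 probes for rat these counts were 24384, 11591 and 9623. Testing needed a signal well above background on every array of a group, in 1 group or both, and 48 probes of 37 genes had it. Levels below are log2 signals after quantile normalization, and levels of different probes are not set against each other. Beneath detection throughout were Myh2 and Myh4, adult fast myosins, Myh7, the slow and cardiac myosin, Myl1, a fast light chain, Myf6, a late myogenic factor, and Pax7, the marker of muscle stem cells, with both of its probes. Myod1, the factor that commits cells to skeletal muscle, was well above background on 4 of 8 arrays, 2 in each group, and was not tested. Its log2 signals were 5.56, 3.69, 1.42 and 3.53 on non-irradiated arrays 1 to 4 and 4.97, 3.51, 2.84 and 2.70 on irradiated arrays 1 to 4, and the 2 highest were those of pair 1. Tnni1, slow skeletal troponin I, was likewise detected on 4 arrays, Actn2, a Z-disc actinin, on 5, Ttn, the giant elastic protein titin, on 6 by its brightest probe, and Myh6, the fast cardiac myosin, on 6. Myh14, a cytoplasmic myosin, was detected on 2 non-irradiated arrays and 0 irradiated ones, and Myl10 on 1 irradiated array alone. No fold was computed for these genes.

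Irradiation left no member past the threshold. With the replicate number as a block, 0 of 48 member probes reached an adjusted p below 0.1 (limma, Benjamini-Hochberg over all 26400 probes tested), against 0% of all probes. At an unadjusted p below 0.05 there were also 0 of 48, against 2.54% of all probes. Higher in the irradiated array of all 4 pairs were 0 of 48 member probes, against 3.57% of all probes, and lower in all 4 pairs were 4 of 48, against 4% of all probes. Those 4 were the probes of Myh8 and Myh9 and 2 of the 4 probes of Tpm1. The 48 include 4 probes, of Myl2, Myl7, Tnni3 and Myh11, that were tested because 1 group alone was above background throughout. Over the other 44, above background on all 8 arrays, the log2 differences, irradiated minus non-irradiated, ran from -0.24 for Myh8 to 0.31 for Myh15, and their signs were mixed, with 19 above 0 and 25 below.

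**Figure D1:**
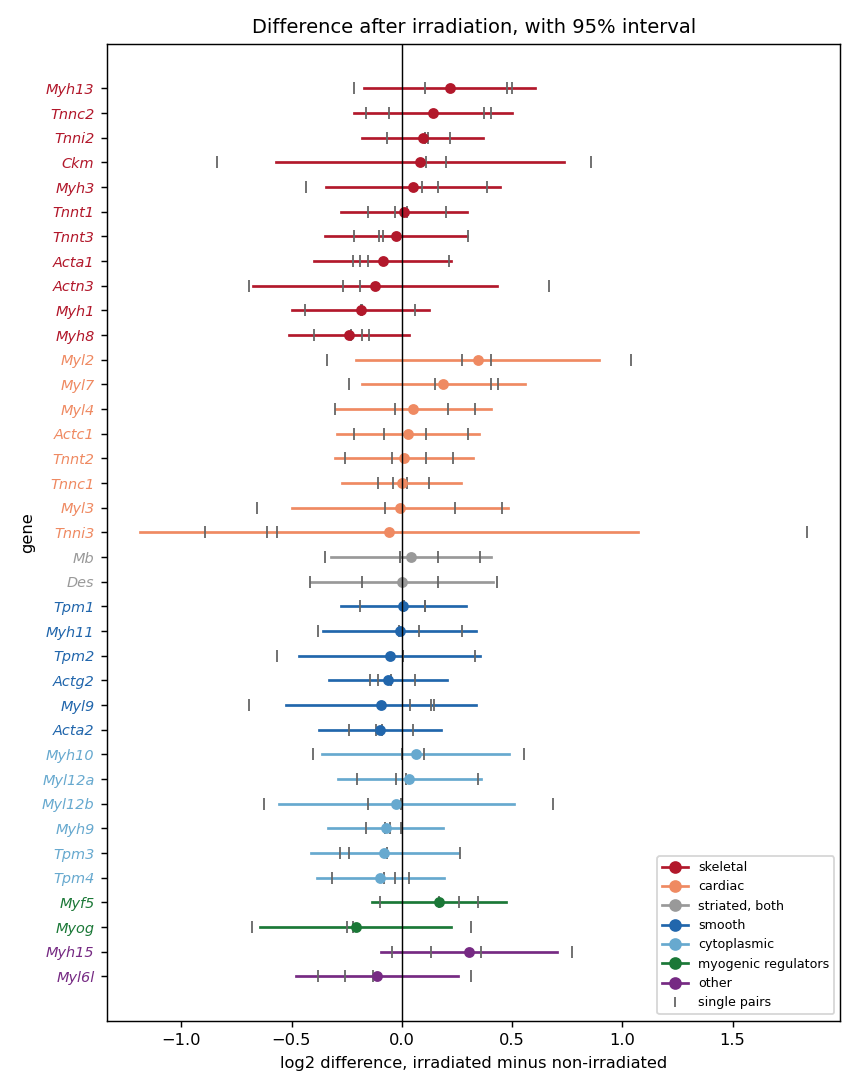
Log2 difference of each of the 37 tested genes, irradiated minus non-irradiated, by the brightest probe of the gene. Dots are the estimates, lines the 95% intervals from limma and grey ticks the 4 single pairs, with genes grouped and colored by muscle class; every interval spans 0, and Tnni3 has the widest.

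By class, the median differences of genes above background on all 8 arrays lay close to that of all such probes, which was -0.0051. They were 0.0099 over 11 skeletal genes, 0.011 over 5 cardiac genes, 0.020 over the 2 genes shared by both striated muscles, -0.061 over 5 smooth muscle genes, -0.049 over 6 cytoplasmic genes and -0.020 over 2 myogenic regulators. With the 4 genes tested through 1 group included, they were 0.020 over 8 cardiac and -0.058 over 6 smooth muscle genes. The SD of a class median over the 4 pairs was 0.115 for skeletal, 0.158 for cardiac, 0.134 for smooth and 0.202 for cytoplasmic genes, in each case larger than the median itself. Whether fewer cells of a type or less RNA in each cell gave a low signal cannot be told apart in such cultures.

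Among skeletal genes, Myh8, the perinatal myosin heavy chain, differed most. Its signals were 9.56, 7.58, 6.53 and 6.61 on non-irradiated arrays 1 to 4 and 9.41, 7.40, 6.30 and 6.21 on irradiated arrays 1 to 4. The irradiated array was the lower of each pair, by 0.15 to 0.40, while the groups overlapped widely because the pairs were far apart. The difference was -0.24 ± 0.11 (SE), with a 95% interval from -0.51 to 0.03 and an unadjusted p of 0.0751, the smallest among the members. Myh13, the myosin of extraocular muscle, came next at 0.22 ± 0.16, higher in 3 of 4 pairs, and its second probe was not above background on any array. Myh1, the adult fast IIx chain, differed by -0.19 ± 0.13 and was lower in 3 pairs. Ckm, the creatine kinase of muscle, differed by 0.08 ± 0.27, but its single pairs ran from -0.84 to 0.86. Acta1, skeletal actin, differed by -0.09 ± 0.13 and Myh3, the embryonic myosin, by 0.05 ± 0.16, each a small value beside the spread between their pairs.

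The cardiac genes with the greatest estimates were dim. Myl2, the ventricular regulatory light chain, read 5.17, 4.32, 3.94 and 3.82 on non-irradiated arrays 1 to 4 and 4.83, 4.72, 4.21 and 4.86 on irradiated arrays 1 to 4. It was well above background on 2 of 4 non-irradiated and all 4 irradiated arrays, and differed by 0.34 ± 0.23 (95% interval -0.21 to 0.90), higher in 3 of 4 pairs. It was thus tested only through the irradiated group, where it read higher, and so was Myl7. Myl7, the atrial light chain, was detected on the same numbers of arrays and differed by 0.19 ± 0.15, while the second probes of Myl2 and Myl7 were not tested. Tnni3, cardiac troponin I, differed by -0.06 ± 0.46. That interval, -1.18 to 1.07, is set by non-irradiated array 3, at 2.22 the single array of 8 on which the probe was not above background. Without pair 3 the Tnni3 difference was -0.69, with an unadjusted p of 0.0083, and 0 member probes passed the adjusted threshold there. Actc1, cardiac actin, and Tnnt2, cardiac troponin T, were bright enough on all arrays and differed by 0.03 ± 0.13 and 0.01 ± 0.13.

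Smooth muscle actin was bright in every culture. Acta2, the smooth muscle α-actin also found in myofibroblasts, read 15.84, 15.72, 15.71 and 15.32 on non-irradiated arrays 1 to 4 and 15.72, 15.48, 15.63 and 15.37 on irradiated arrays 1 to 4. The groups overlapped, and the difference of -0.10 ± 0.11 had a 95% interval from -0.37 to 0.18, or 0.772 to 1.13 times on the linear scale. Myl9, the light chain that switches smooth muscle contraction, differed by -0.09 ± 0.18, with pair 2 at -0.69 and the other pairs slightly above 0. Actg2, the enteric smooth muscle actin, differed by -0.06 ± 0.11 with 1 probe and by -0.03 with the other. Myh11, the smooth muscle myosin heavy chain, differed by -0.01 ± 0.14. Of the cytoplasmic genes, Tpm4 differed by -0.10 ± 0.12, Tpm3 by -0.08 ± 0.14 with its brightest probe and Myh9, the main nonmuscle myosin, by -0.07 ± 0.11, lower in 4 of 4 pairs but by 0.16 at most.

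The remaining classes were small. Des, the intermediate filament desmin, differed by 0.00 ± 0.17 and Mb, the oxygen store myoglobin, by 0.04 ± 0.15. Myog, the factor of terminal muscle differentiation, differed by -0.21 ± 0.18, and Myf5, an early myogenic factor, by 0.17 ± 0.12. Myh15 and Myl6l, which the classes left aside, differed by 0.31 ± 0.16 and -0.11 ± 0.15.

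The cultures differed far more by replicate number than by irradiation. In the same fit, 17 of 48 member probes were called between replicate numbers at an adjusted p below 0.1 (limma moderated F test with 3 degrees of freedom), 35.4% of them against 9.18% of all probes. Each of the 17 was highest in pair 1, as were 45.9% of all called probes with a value on all arrays (4.18% of all probes were both called and highest there). Regardless of calls, the pair mean was highest in pair 1 for 32 of 48 member probes, against 32.8% of all probes. By class the called probes were 6 of 11 skeletal, 4 of 9 cardiac, 6 of 12 smooth and 0 of 10 cytoplasmic, with 1 of the 2 myogenic regulators and 0 of the 4 others. Counted by gene with 1 probe each, 12 of 37 were called, 32.4% against 9.57% of all names. The count moved with each pair left out. Without pair 1, 1 of 48 member probes was called, that of Myh3, against 0.561% of all probes. Leaving out pair 2, 3 or 4 gave 27, 8 and 5 member probes, against 36.5%, 1.78% and 1.26% of all probes. The 8 without pair 3 included probes of Myh8, Myh3, Myh1, Tnnc2, Tnnt2, Actg2 and Myh11. Most of the other called probes were not called there, and those of Tpm1, Tnnt3 and Myog belong to these others. Both shares thus rose without pair 2 and fell without pair 1, 3 or 4. The 2 arrays of pair 2 had the lowest correlation within a pair (0.0542, against 0.571 to 0.749 in the other pairs). With 3 pairs the fit also has fewer arrays, and the parts of this and of the pair in the counts were not tested. Each number holds 1 culture per group, so the p-values measure the spread left within pairs, part of which may be technical.

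**Figure D2:**
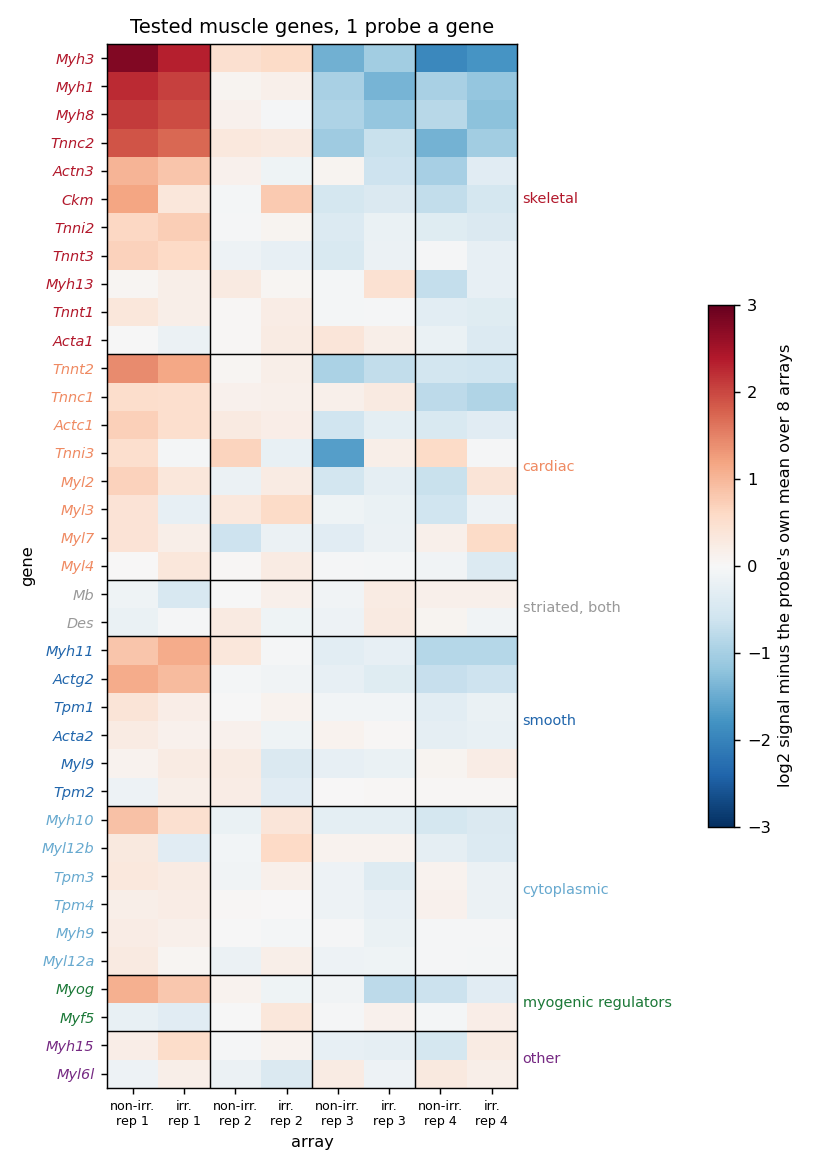
Log2 signal of the 37 tested genes on the 8 arrays, as the deviation from the mean of the same probe, with arrays ordered by pair and genes by class and by the spread of their pair means. Myh3, Myh1, Myh8 and Tnnc2 are highest on both arrays of replicate 1 and low on all arrays of replicates 3 and 4, while most cytoplasmic genes vary little, apart from Myh10.

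The skeletal genes spread most. Myh3, whose product is the embryonic myosin, read 11.15, 8.86, 6.93 and 6.44 on non-irradiated arrays 1 to 4 and 10.72, 8.95, 7.32 and 6.61 on irradiated arrays 1 to 4. Both arrays of pair 1 were the highest, pair 2 lay between, and the pairs did not overlap. The pair means were 10.93, 8.91, 7.13 and 6.52, a 21.2-fold range in signal against within-pair differences of at most 0.43 on the log2 scale, with an adjusted p of 0.00346. Of the 26250 tested probes with a value on all arrays, 0.0724% had a larger range between pairs. Without pair 1 the range was 5.21-fold (adjusted p = 0.07) and without pair 4 14-fold.

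Myh8 and Myh1 were likewise highest in pair 1 and next in pair 2, with no clear order of pairs 3 and 4. The Myh8 signals are given above, and its pair means of 9.48, 7.49, 6.41 and 6.41 made an 8.42-fold range (adjusted p = 0.00335). Myh1 read 9.42, 7.26, 6.22 and 6.20 on non-irradiated arrays 1 to 4 and 9.24, 7.32, 5.78 and 6.01 on irradiated arrays 1 to 4. Its range was 10.1-fold (adjusted p = 0.00346), with pairs 3 and 4 overlapping. Tnnc2, which binds the calcium that starts fast-muscle contraction, read 8.83, 7.28, 5.89 and 5.53 on non-irradiated arrays 1 to 4 and 8.67, 7.23, 6.30 and 5.91 on irradiated arrays 1 to 4, an 8.16-fold range (adjusted p = 0.00814). The median range over all tested probes was 0.56 on the log2 scale and its 99th percentile was 2.30, while these 4 genes had ranges of 4.41, 3.07, 3.33 and 3.03. Without pair 1, Myh8, Myh1 and Tnnc2 had 2.12-fold, 2.46-fold and 2.89-fold ranges and were not called (adjusted p = 0.112, 0.112 and 0.105).

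Other skeletal genes moved less or passed no test. Tnni2 and Tnnt3, the fast troponins I and T, had 2.12-fold and 1.95-fold ranges with adjusted p of 0.0517 and 0.0892. Tnni2 was not called without pair 1, 3 or 4, nor Tnnt3 without pair 1 or 4. Actn3, the actinin of fast fibers, had a 3.03-fold range at an adjusted p of 0.111, and Ckm a 2.62-fold range at 0.154. Acta1 read 6.62, 6.67, 6.99 and 6.44 on non-irradiated arrays 1 to 4 and 6.47, 6.88, 6.80 and 6.21 on irradiated arrays 1 to 4. Its pair means were highest in pair 3 and not in pair 1, with a 1.49-fold range at an adjusted p of 0.226, so the skeletal actin probe did not share the order of the myosins. Tnnt1, the slow troponin T, and Myh13 had adjusted p of 0.192 and 0.222.

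**Figure D3:**
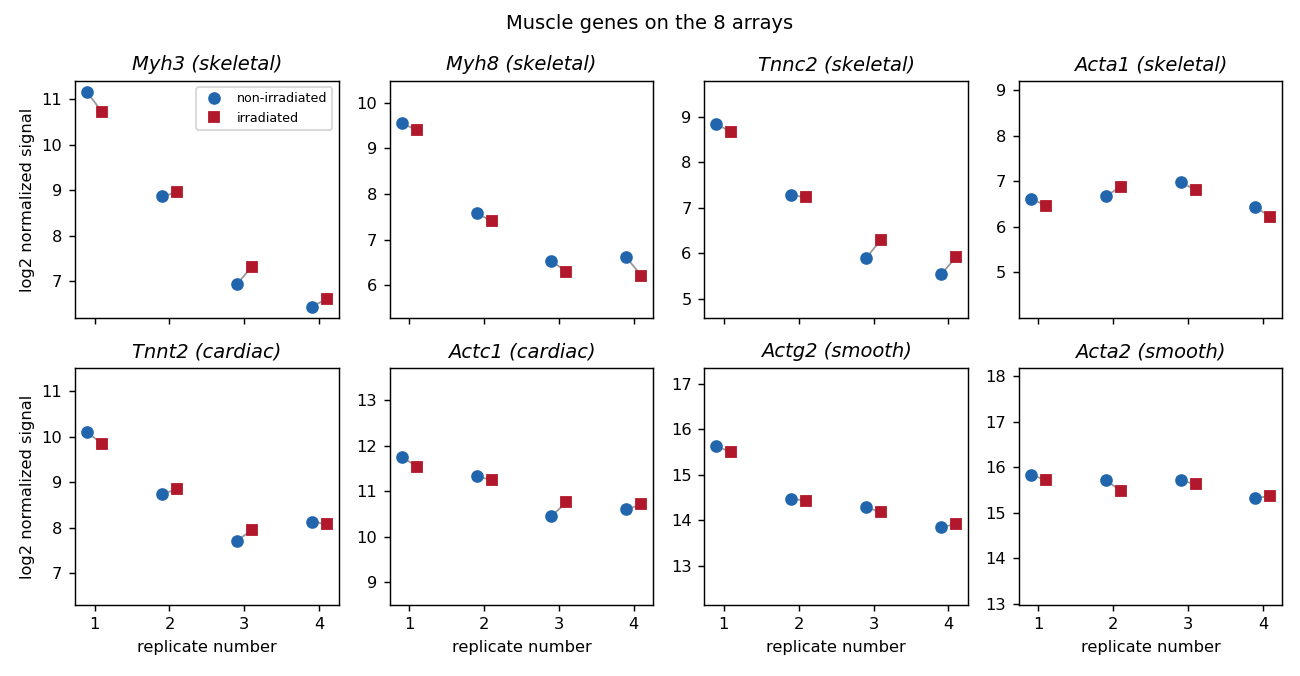
Log2 normalized signal of 8 genes by replicate number, with non-irradiated arrays as circles, irradiated arrays as squares and a line joining each pair; each panel spans the same height on the log2 scale. Pair 1 stands above the others for Myh3, Myh8, Tnnc2, Tnnt2 and Actg2, while Acta1 and Acta2 stay within a narrow band.

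Cardiac genes showed the order in part. Tnnt2 read 10.10, 8.74, 7.72 and 8.13 on non-irradiated arrays 1 to 4 and 9.85, 8.85, 7.95 and 8.09 on irradiated arrays 1 to 4. Pair 1 was highest and pair 2 next, pairs 3 and 4 were low, and the 4.4-fold range had an adjusted p of 0.0143. Tnnc1 was called with both probes, at an adjusted p of 0.0337 for the brighter one and 0.0731 for the one printed above, and there pair 4 stood apart as the lowest. Actc1 read 11.76, 11.33, 10.45 and 10.60 on non-irradiated arrays 1 to 4 and 11.54, 11.25, 10.75 and 10.71 on irradiated arrays 1 to 4, with pairs 1 and 2 above pairs 3 and 4 and a 2.06-fold range (adjusted p = 0.068). Tnnt2 and Actc1 are also expressed by immature skeletal fibers, as is Myh3. Without pair 1, Tnnt2 had a 1.95-fold range (adjusted p = 0.147). Actc1 and the brighter Tnnc1 probe were not called without pair 1, 3 or 4, and without pair 4 the Tnnc1 range was 1.3-fold. Among the other tested cardiac genes, the light chains Myl2, Myl3, Myl4 and Myl7 and Tnni3, 0 of 5 were called, and their adjusted p ran from 0.150 to 0.553.

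Smooth muscle genes divided. Actg2 read 15.63, 14.48, 14.29 and 13.85 on non-irradiated arrays 1 to 4 and 15.49, 14.43, 14.18 and 13.91 on irradiated arrays 1 to 4. Pair 1 was above all other arrays and pair 4 below them, a 3.2-fold range with an adjusted p of 0.0192, and the second probe, which shares 56 of its 60 bases with the first, gave 0.0196. Myh11 read 5.91, 5.42, 4.75 and 4.22 on non-irradiated arrays 1 to 4 and 6.18, 5.05, 4.83 and 4.21 on irradiated arrays 1 to 4, a 3.56-fold range (adjusted p = 0.0328), with the probe not above background on 1 array. Without pair 1 the ranges of Actg2 and Myh11 were 1.49-fold and 2.03-fold, and neither gene was called without pair 1 or without pair 4. In contrast, Acta2 had a 1.35-fold range (adjusted p = 0.315), Myl9 a 1.32-fold range (adjusted p = 0.538) and Tpm2 a 1.07-fold range (adjusted p = 0.979). Of the myogenic regulators, Myog read 7.26, 6.30, 6.09 and 5.54 on non-irradiated arrays 1 to 4 and 7.01, 6.07, 5.41 and 5.85 on irradiated arrays 1 to 4. Myog was highest on both arrays of pair 1 (adjusted p = 0.0721) and was not called without pair 1 or without pair 4. Myf5 was lowest in pair 1, at 6.93 against 7.25 to 7.37 in the other pairs, without passing the test (adjusted p = 0.338). Des and Mb were not called either, at 0.884 and 0.403. Of the cytoplasmic genes, Myh10, a nonmuscle myosin, had a 2.24-fold range with pair 1 highest but was not called (adjusted p = 0.114).

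Tropomyosin lies along the actin filament, and its genes make many isoforms from alternative exons, so probes of 1 gene need not read the same transcripts. Tpm1 had 4 probes on the minus strand of chromosome 8. The brightest, at chr8:71331362-71331421 and thus nearest the 3′ end of the gene, had a 1.46-fold range between pairs and was not called (adjusted p = 0.225). The other 3, between 71337120 and 71340374, had 2.38-fold to 2.61-fold ranges and were all called, at adjusted p from 0.0414 to 0.0497. None of these 3 was called without pair 1 or without pair 4, and most of them were not called without pair 3. A pair of them shares 58 bases, so they are not independent readings. Their pair means were in the order 1, 2, 3, 4, and after irradiation these 3 differed by -0.23, -0.21 and -0.16, against 0.01 for the probe at the 3′ end. Tpm2 was called with 0 of 3 probes and Tpm3 with 0 of 5 tested ones, whose orders among the pairs differed.

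**Figure D4:**
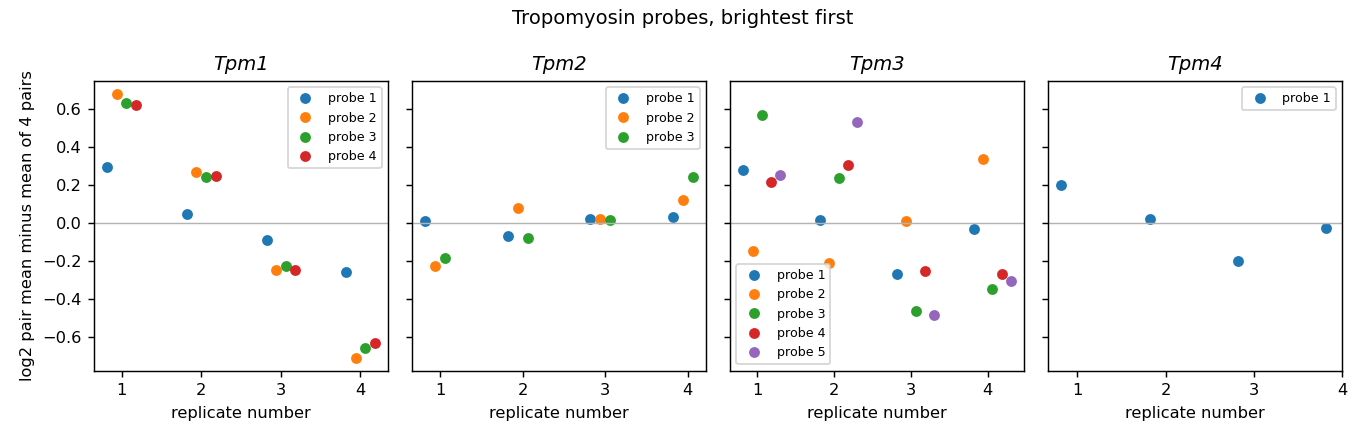
Pair mean of each tested tropomyosin probe, as the log2 deviation from the mean over the 4 pairs, by replicate number and with probes of a gene numbered from the brightest. Tpm1 probes 2 to 4 cover a wider range than its probe 1. All Tpm2 probes are highest in pair 4 but otherwise differ in order, and Tpm3 probes show no common order.

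Contractile genes outside the name rule were read from a list of 69 genes on the array, of which 51 were tested. None of them had an unadjusted p below 0.05 for irradiation (0 of 51, limma, against the 2.54% above), and 15 of 51 were called between replicate numbers (29.4%, against 9.18% of all probes). Of the 15, 10 were highest in pair 1, against 45.9% of all called probes, and the other 5 were lowest there. Casq2, which stores calcium in the sarcoplasmic reticulum, had pair means of 8.22, 5.77, 4.78 and 4.01 (adjusted p = 0.00231). Mylpf, the fast-muscle regulatory light chain, had 10.92, 9.20, 7.56 and 7.39 (adjusted p = 0.00508), and Mybph, a myosin-binding protein, 8.33, 6.88, 5.23 and 4.58 (adjusted p = 0.00428). Mylk, the kinase that phosphorylates the smooth muscle light chain, had 11.71, 11.19, 10.20 and 8.79 (adjusted p = 0.0046). Going the other way, Myot, a Z-disc protein, read 5.30 in pair 1 and was highest in pair 4 at 7.55 (adjusted p = 0.0375). Atp2a1, the calcium pump of fast fibers, read 8.18 in pair 1 against 8.81 to 9.17 elsewhere (adjusted p = 0.0633), and Cav3, the caveolin of muscle, 7.47 against 8.30 to 8.65 (adjusted p = 0.0672). Nebl, a Z-disc relative of nebulin, read 7.30 against 7.57 to 8.53 (adjusted p = 0.0569), and Tmod4, which caps thin filaments of skeletal muscle, 4.15 against 4.82 to 5.73 (adjusted p = 0.0482). Srf and Myocd, which drive smooth muscle genes, and the Mef2 factors Mef2a, Mef2c and Mef2d were not called, with adjusted p from 0.270 to 0.888.

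Markers of other cell types were set beside these values. The median deviation of the 11 skeletal genes from their own means was 0.75, 0.13, -0.32 and -0.64 in pairs 1 to 4. The 8 cardiac genes gave 0.40, 0.14, -0.33 and -0.31, and the 6 smooth genes 0.24, -0.03, -0.16 and -0.25. Over all names with 1 probe each, 9.57% were called between replicate numbers. Of proliferation genes 5 of 5 were called, and they were highest in pair 4, at 0.94 against -0.41 to -0.26. Endothelial genes, 3 of 5 called, gave 0.35, 0.31, -0.23 and -0.34, pericyte genes, 1 of 5 called, 0.25, 0.03, -0.08 and -0.17, and osteoblast genes, 3 of 10 called, 0.30, 0.00, 0.01 and -0.12. Macrophage genes, 0 of 3 called, gave 0.54, 0.16, -0.22 and -0.28, with Cd163 not above background on any array and Ptprc above it on 1. Pparg, the only fat gene tested, had pair means of 9.51, 8.71, 8.23 and 7.44 (adjusted p = 0.0135). The summed signal of the skeletal genes ran from 812 to 5225 over non-irradiated and from 822 to 4327 over irradiated arrays. The sum over the osteoblast genes, which is read across arrays only and not against that of other probes, ran from 503759 to 564692 and from 444715 to 533703. The part of any of these cell types in the muscle signals was not tested.

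**Figure D5:**
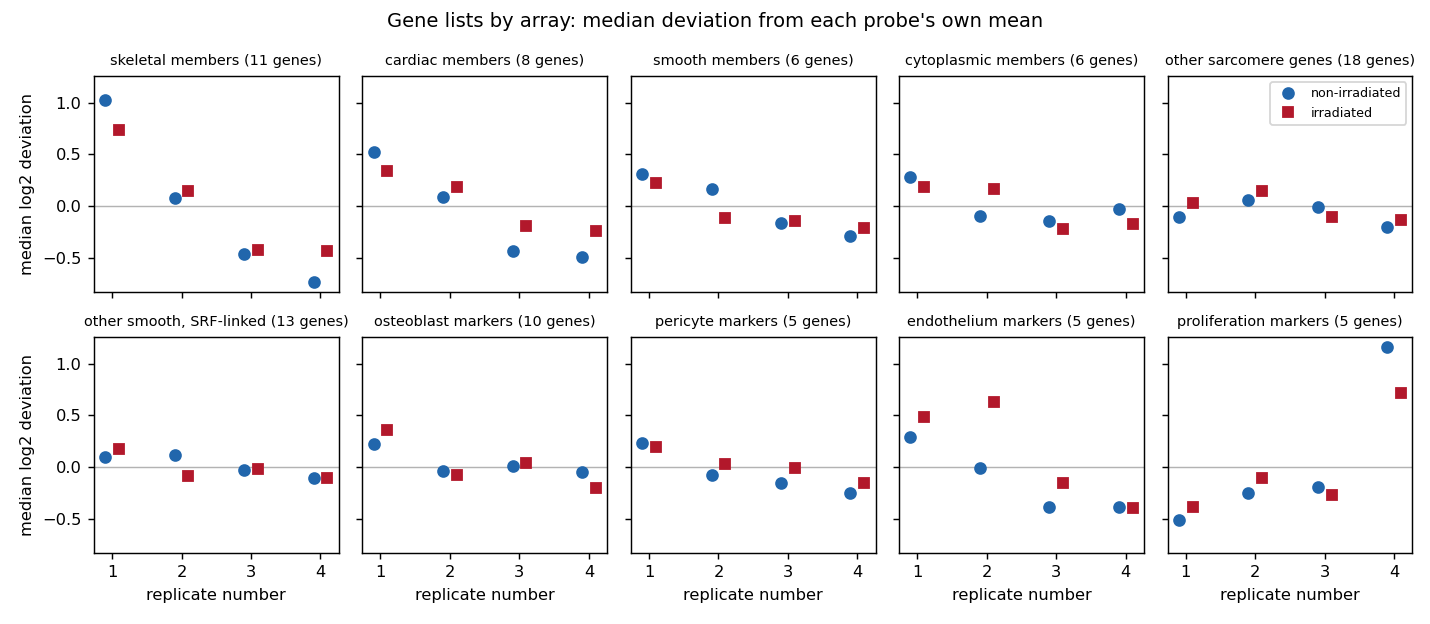
Median log2 deviation of the tested genes of 10 lists from their own means over the 8 arrays, by replicate number, with non-irradiated arrays as circles and irradiated arrays as squares. Skeletal genes are at 1.03 on non-irradiated array 1 and at -0.74 on non-irradiated array 4, and proliferation genes are highest on both arrays of replicate 4.

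Promoters of the genes were read from RefSeq (build GRCr8, 250 bases before to 50 after each start), which held 49 promoters of 43 of the 50 genes. They were searched on both strands for the E-box CAGCTG, which MyoD-family factors bind, the TATA box TATAAA, the CArG box bound by Srf, and the MEF2 box, of which the TATA and MEF2 matches can overlap. CAGCTG was in 28.6% of member promoters against 15.1% of all 33469, TATAAA in 28.6% against 14.2%, the CArG box in 10.2% against 1.64% and the MEF2 box in 12.2% against 3.29%. Of the 10 promoters of genes called between replicate numbers, CAGCTG was in 1, TATAAA in 3, the CArG box in 1 and the MEF2 box in 1, and of the 26 promoters of tested genes not called they were in 10, 7, 3 and 1. The 3 below are shown because Myh3 and Myh1 had the widest ranges between pairs and Acta1 did not share their order. Capitals mark every match to these motifs, and each is written in the direction of transcription, for Myh3 chr10:52268935-52269234 (plus strand), for Myh1 chr10:52384662-52384961 (plus strand) and for Acta1 chr19:68784145-68784444 (minus strand).
Myh3: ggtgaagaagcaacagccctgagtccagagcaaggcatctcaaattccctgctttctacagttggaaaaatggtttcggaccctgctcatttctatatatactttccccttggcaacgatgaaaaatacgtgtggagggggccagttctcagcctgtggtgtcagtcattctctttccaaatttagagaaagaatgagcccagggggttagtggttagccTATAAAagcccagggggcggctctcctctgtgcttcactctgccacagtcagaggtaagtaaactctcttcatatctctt
Myh1: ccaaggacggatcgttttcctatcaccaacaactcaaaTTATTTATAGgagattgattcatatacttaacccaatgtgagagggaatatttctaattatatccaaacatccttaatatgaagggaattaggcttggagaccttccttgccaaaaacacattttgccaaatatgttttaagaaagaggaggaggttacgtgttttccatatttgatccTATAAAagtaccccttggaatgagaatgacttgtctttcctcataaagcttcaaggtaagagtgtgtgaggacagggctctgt
Acta1: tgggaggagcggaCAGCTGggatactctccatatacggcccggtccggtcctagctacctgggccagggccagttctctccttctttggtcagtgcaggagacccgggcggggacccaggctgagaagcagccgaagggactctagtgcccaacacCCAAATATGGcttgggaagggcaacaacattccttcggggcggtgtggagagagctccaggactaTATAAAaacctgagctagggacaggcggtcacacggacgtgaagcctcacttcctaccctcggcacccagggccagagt

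The Myh3 window holds 1 match, TATAAA shortly before the start. Myh1 holds 2 TATAAA matches, of which the one farther from the start lies inside its MEF2 box on the other strand. Acta1 holds 1 match each to CAGCTG, the CArG box and TATAAA, in this order. Such matches describe the letters in these windows and not binding.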

How the data were processed

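The authors deposited scanner output of 8 single-color arrays (Agilent Feature Extraction 11.0.1.1, from the submitters' processing notes), in which the intensity of each spot is corrected for background and trends but not normalized between arrays. A table of log2 values (24029 rows), deposited with them, served as an alternative.

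Processed signals were log2-transformed and quantile normalized over 58717 spots of rat probes, spots marked as outlying were left out, and spots of a probe were averaged. Irradiated minus non-irradiated differences and the terms of the replicate number came from 1 fit (limma 3.58.1, R 4.3.3), two-sided, with Benjamini-Hochberg adjustment. A probe counted as above background where over 50% of its spots were. The fit was tested on simulated data with the residual spread of each probe and no other differences between pairs. At an adjusted p below 0.1, it recovered 39% of 100 probes changed by 1 on the log2 scale in irradiated arrays. Of 100 changed by 2, it recovered 85%. For the same changes in replicate 1, tested between replicate numbers, it recovered 0% and 46%. False calls were 7.46% of the calls for irradiation and 2.13% between replicate numbers. The number of arrays limits the precision.

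The block was used because file names pair the arrays of a number by animal. Within numbers, deviations from group means correlated at 0.608, 0.0542, 0.571 and 0.749 across probes, which are not independent, and irradiated array 2 correlated best with non-irradiated array 1 (0.439).

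Members, classes and lists were chosen with earlier results of these data known. Genes were named by their brightest probe: the 3 largest laser differences of each class, the 10 smallest p between replicate numbers and a fixed set of 14 genes, with further probes beside them. RefSeq (GRCr8) held 49 of 50 symbols. Alternatives were other scaling, background correction, filters, outlier handling, blocks, variance prior, the deposited values, and each replicate left out.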

Additional observations from a re-analysis of the deposited data

Results flagged for a closer look

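Of 46 sets of 4 arrays examined, the sets being the 2 groups of 23 named genes that were above background throughout, 3 (6.52%) held 1 array far from the others by Dixon's test, where chance gives about 5%. All 3 were arrays of replicate 1. Mb read 8.77 on irradiated array 1 against 9.40 to 9.48 on the other irradiated arrays. Myf5 read 6.98 on non-irradiated array 1 against 7.16 to 7.20. Myh9 read 16.90 on non-irradiated array 1 against 16.63 to 16.66. The cause was not tested.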

How the results depend on the processing

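At an adjusted p below 0.1, 0 member probes and 0 of all probes were called for irradiation under every alternative run. Without the replicate block, and with it as a random block, 0 member probes had an unadjusted p below 0.05. That count was 1 of 48 with normexp (Tpm1), against 254 of 26400 over all probes, and 1 of 48 with the mean signal (Tpm1), against 255. It was 2 of 71 without a filter on dim probes (Myl7 and Pax7), against 1658 of 45594 over all probes. With the deposited values it was 1 of 44 (Ttn), against 292 of 24029. It was between 0 and 4 of 48 with each replicate left out, and the 4 came without replicate 2, against 1411 of 26400. Between replicate numbers, the count of member probes was 9 without the filter, where 71 were tested, and between 1 (without replicate 1) and 27 (without replicate 2) with a replicate left out. Over all probes the count was 3734 with the mean signal, 618 without the filter, 3675 with the deposited values and between 148 and 9628 with a replicate left out, against 2422. Under the settings that kept all arrays, the counts of member probes were 15 to 22 apart from that without the filter. Of 372 laser differences of named genes under alternatives, 23 changed sign, and no gene was called for irradiation under any setting. Dim probes such as Tnni3 and Myl2 set the widest intervals, and the cause of the changes was not tested.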
